A study of Mus musculus with 9 samples.

Results

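The nucleotides described here are the adenines (A) and cytosines (C) that lie within 3 nucleotides of a run of 3 or more guanines (G) in conserved mouse 5′ untranslated regions (5′ UTRs). They were found from the base and position columns of the deposited table alone, without the reactivities, and numbered 1875 of the 16187 A and C rows (11.6%). These rows cover 1568 distinct positions, of which 307 were read in 2 overlapping amplicons. They sit beside 595 runs in 151 of the 161 amplicons and in all 69 transcripts. Run counts of the whole set are per amplicon, and 497 of the runs were distinct by position. A nucleotide 1 to 3 bases before a run was placed in the 5′ flank (858 rows, 317 A and 541 C), one 1 to 3 bases after a run in the 3′ flank (909 rows, 402 A and 507 C), and one with a run on each side between runs (108 rows, 44 A and 64 C). Most runs were short, with 392 of 3 G, 145 of 4 G and 58 of 5 or more, the longest having 12. A run was marked as a quadruplex pattern where at least 4 such runs followed each other with gaps of 1 to 7 nucleotides, which held for 4 stretches and 32 of the flanking nucleotides.

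The study probed RNA structure with dimethyl sulfate (DMS) in E14TG2a mouse embryonic stem cells, an established line, in 3 groups of 3 replicate samples. It read the marks as mutations in amplicons of 250 nt made from cDNA. Untreated cells received 1.6% DMS, buffered with 250 mM bicine, at 37 °C, and the exposure lasted 6 min. ATP-depleted cells were handled alike after 10 min in glucose-free medium with 10 mM 2-deoxy-D-glucose and 10 mM sodium azide, and both drugs stayed in all later media. The third group is RNA labelled as refolded in vitro, and the sources used here do not give its buffer, ions or DMS dose. No library without DMS was used here, so a nucleotide's background was not measured. All reactivities are in CPM, counts per 1000000 counts of the same amplicon and sample, so they describe how signal was shared out along an amplicon and not its total. Each value averages over all RNA molecules of a transcript in a sample. Recovered counts were 5743965 to 12616275 per sample, and the in vitro samples were the shallowest, with 19 to 35 of their 161 libraries under 5000 counts against 4 to 13 in the other samples. The median spread of the flanking nucleotides between replicates, as an SD of log2(CPM + 3196.78), was 0.153 in ATP-depleted, 0.178 in untreated and 0.249 in vitro refolded samples.

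DMS methylates the base-pairing face of A and C where that face is free, and a reverse transcriptase misreads the methylated base. Runs of G are of interest in 5′ UTRs because they pair strongly with runs of C, and because several runs close together can stack into a G-quadruplex, a multi-stranded fold held by potassium ions in which guanines bind each other and the bases between the runs form loops. G itself gives little signal in this assay, so the A and C beside a run are the nearest reporters of its surroundings.

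The stretches in which the flanking nucleotides named below lie are given first, 5′ to 3′ in DNA letters as deposited, so that each nucleotide can be seen beside its run. Capitals mark the named nucleotides, and the number after the base is the position in the transcript as the table counts it. These stretches were picked by the size of their change between in vitro refolded and in-cell samples.
Hipk3 A296 and A302: ggaagatgAgggagAcgggcccg
Taok2 C517 and C518: ccgtgcagCCgggcgtcc
Zc3h6 C428: atgcagggCacga
Smad6 C174: gctgggacCgcggggcc
Cnot3 C359: ctgtagggCagggaaga
Srgap2 C104 and C105: accttgggCCtgggaccg

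The 4 quadruplex patterns are printed with the guanines of their runs in capitals, to show how short the loops between the runs are. The Ints6 stretch leaves out the first guanine of its first run.
Stox2: gtGGGGGtgtGGGGGGGcgtGGGGaGGGcc
Ints6: GGGGtacggccGGGaggacctGGGctGGGG
Rarg: ccaGGGcagtGGGcatGGGcGGGGGctg
Senp3: ggtGGGcctGGGGctcgcGGGaGGGGaag

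Adenines of the 5′ flank were somewhat more reactive, and cytosines of the 3′ flank less reactive, than the same bases far from any run, but neither level was confined to the flanks. Levels were set as each sample's median over a class, against A or C more than 10 nucleotides from any run of 3 or more G (4975 A and 6505 C). In untreated cells the 5′ flank A had medians of 9864, 8847 and 9825 CPM in the 3 samples, against 8526, 8107 and 8975 CPM for distant A. Each 5′ flank value was above the distant value of its own sample, with a ratio of 1.11 ± 0.0369 (SD, n = 3). The 3′ flank A, at 8395 ± 270.3 CPM (SD, n = 3), was close to distant A, with a ratio of 0.984 ± 0.0215 (SD, n = 3). Cytosines of the 3′ flank had 4467, 4569.96 and 4343 CPM against 4869, 4955 and 4953 CPM for distant C. They were below distant C in every untreated sample, with a ratio of 0.905 ± 0.0249 (SD, n = 3), while the ratio of 5′ flank C was 0.960 ± 0.0202 (SD, n = 3). Cytosines between runs, which also follow a run, were level with distant C, with a ratio of 1.00 ± 0.0223, and A between runs had 1.06 ± 0.0841 (SD, n = 3 each). Other places had like ratios in untreated cells: 1.11 for A beside runs of C, 1.12 for A 10 bases before a run of G, and 0.830 to 0.851 for C 8 to 10 bases after one. No test is given for these levels, which describe classes of nucleotides that share amplicons and libraries.

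The same order of the 5′ and 3′ flanks held in the other groups. After ATP depletion the ratios to distant bases were 1.09 for 5′ flank A, 0.975 for 3′ flank A, 0.933 for 5′ flank C and 0.872 for 3′ flank C, and after refolding they were 1.11, 1.01, 0.944 and 0.844. In single samples the 3′ flank C ratio was 0.826 to 0.863 in vitro and 0.877 to 0.922 in untreated cells, without overlap, while the ATP-depleted samples (0.861 to 0.887) overlapped both. With runs of 4 or more G in place of 3 or more, the untreated 3′ flank C ratio was 1.02, on the other side of 1.

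Within the 3′ flank the cytosines closest to the run were the lowest. In untreated cells the C directly after a run had 3967 ± 85.2 CPM (SD, n = 3), the C at distance 2 had 4357 ± 263 CPM and the C at distance 3 had 5535 ± 83.4 CPM (SD, n = 3 each). The value at distance 3 exceeded that of distant C (4926 ± 49.0 CPM) in all 3 untreated samples, and C at distances 4 to 6 stood at 5230.01 to 5424 CPM. At distances 7 to 10 it was lower again, with ratios to distant C of 0.890, 0.851, 0.837 and 0.830 beside 0.805 directly after the run, and in vitro distance 8 (0.722) was below distance 1 (0.757). On the 5′ side the 3 flank positions had 4677 ± 94.1 CPM next to the run, 4651 ± 103 CPM at distance 2 and 4999.5 ± 309 CPM at distance 3 (SD, n = 3 each), and the ratios at distances 6 to 10, between 0.846 and 0.901, were below that of the flank. In vitro the C directly after a run was at 3203 ± 116 CPM, and after ATP depletion at 3661 ± 136 CPM (SD, n = 3 each). All 3 untreated samples lay above all samples of both other groups at this place.

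**Figure D1:**
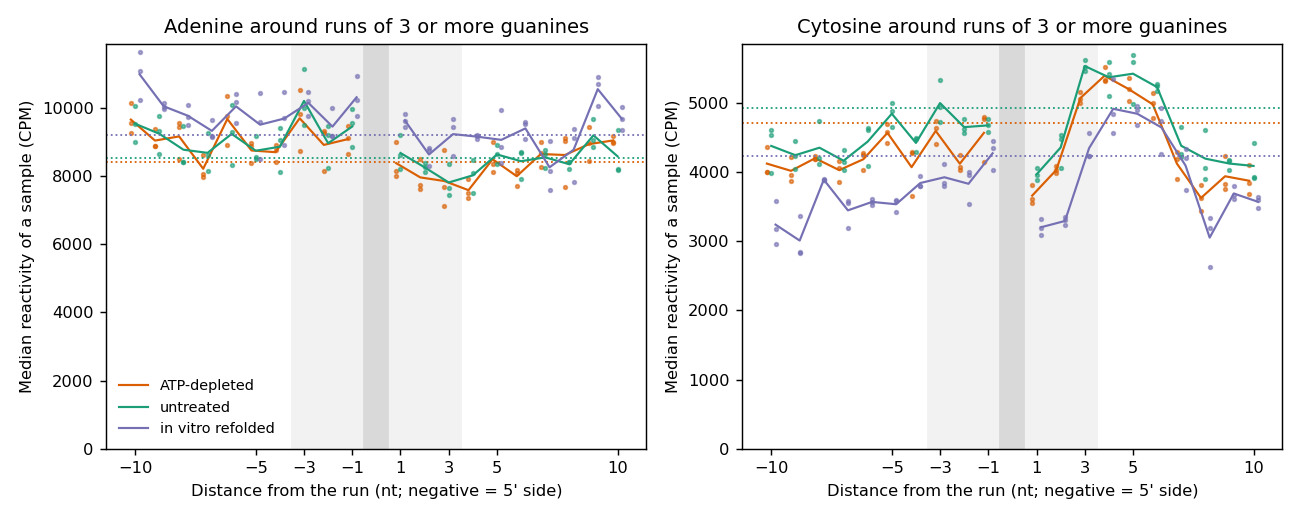
Median reactivity of A (left) and C (right) in CPM against distance from a run of 3 or more G, with 5′ distances negative; points are samples, lines are means of 3 samples and dotted lines are the means for the same base more than 10 nt from any run. The dark band is the run and the pale bands are the 3 nt on each side. Cytosine directly after the run is at 3967 CPM in untreated cells and 3203 CPM in vitro, below the dotted line of its group, and at distance 3 it is above that line in all 3 groups.

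Low values were also seen after 2 guanines, and the lowest after 3. For this comparison only bases with no G on their other side were taken. A C directly after a lone G had 5025 ± 17.4 CPM in untreated cells (1555 rows), and C with no G beside it and far from any run had 4812 ± 69.3 CPM (SD, n = 3 each). After 2 G it was 3759 ± 13 CPM (391 rows) and after 3 G 3149 ± 245 CPM (118 rows; SD, n = 3 each). After 4 G (47 rows) and after 5 or more G (16 rows) the values were 3885 ± 185 and 4901 ± 53.7 CPM, both above the value after 3 G. For adenine the lowest value was after runs of 5 or more G, 5568 ± 1399 CPM in untreated cells, but only 11 rows stand behind it. Cytosine directly before a run of 5 or more G, 12 rows, ranged more widely between groups, from 4603 ± 399 CPM after ATP depletion to 7253 ± 599 CPM in vitro (SD, n = 3 each).

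**Figure D2:**
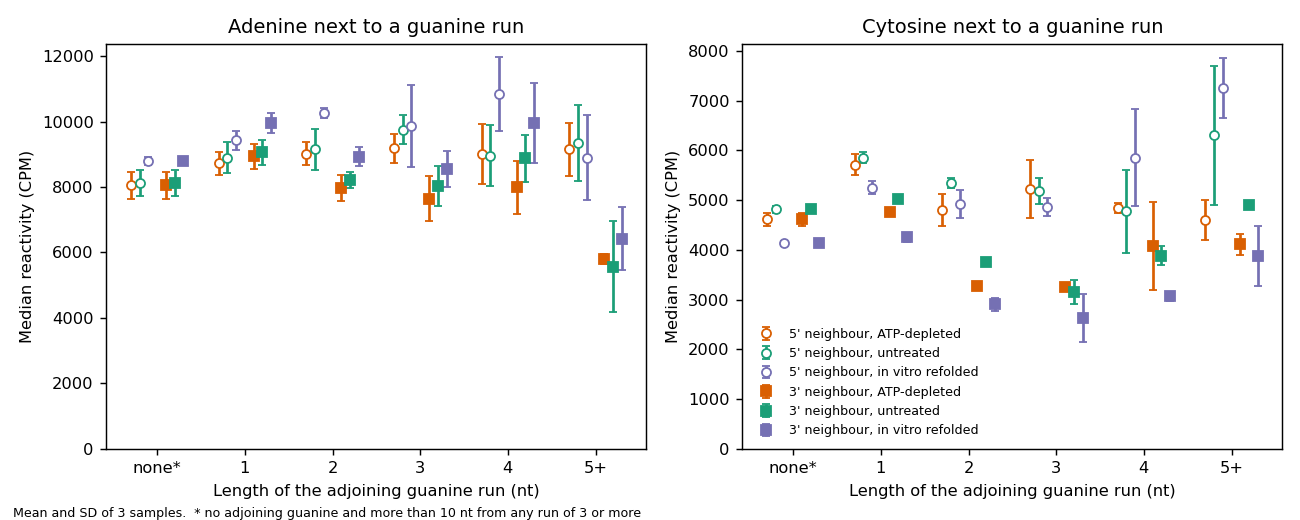
Median reactivity in CPM of A (left) and C (right) directly before (open circles) or directly after (filled squares) a run of 1, 2, 3, 4, or 5 or more G, as the mean and SD of 3 samples per group; bases with a G on the other side are left out, and none marks bases with no adjoining G over 10 nt from any run. The C after 2 or 3 G sits at 3759 and 3149 CPM in untreated cells, below the 5025 CPM after a lone G.

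The guanines of the runs themselves carried little signal, and the first of a run carried the most. In untreated cells the first G of a run had 1293 ± 32.6 CPM, the middle G 481 ± 29.5 CPM and the last G 497 ± 45.0 CPM, against 1103 ± 61.9 CPM for G with no G neighbour (SD, n = 3 each). After refolding the single G was at 952 CPM in the mean, below every untreated sample, while the first G of a run had 1270.03, 1279 and 1226 CPM, overlapping the untreated 1286, 1264 and 1328 CPM. The base composition beside a run is partly set by the rule, since a base adjoining a run cannot be G. The base directly after a run was C in 41.2% and A in 36.1% of cases, and the base directly before a run was C in 39.2% and A in 32.2%. The whole table had 28.4% C and 20.7% A, but also 29.4% G, so its shares are not a like background.

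In vitro refolding changed many of the flanking nucleotides in both directions, and about as often as it changed A and C in general. limma called 335 of 1874 tested flanking nucleotides between in vitro refolded and untreated samples (17.9%), 160 higher and 175 lower in vitro, at an adjusted p under 0.05. Over all 16178 A and C tested, 16.3% were called, 8.08% higher and 8.18% lower, so the flanks' share was near the background. The calls lay in 59 of the 69 transcripts. The median log2 difference was 0.01 over the flanking nucleotides and 0.00 over all A and C. In a fit of the 6 compared samples alone the flanking calls numbered 163, and without untreated replicate 2 or replicate 3 they numbered 179 and 183. With each amplicon divided by its mean in the sample, 103 were called higher and 211 lower.

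Among flanking A, 82 rose and 41 fell of 763, or 10.7% and 5.37%, beside 9.96% and 4.05% of all A. Among flanking C, 78 rose and 134 fell of 1111, or 7.02% and 12.1%, beside 6.7% and 11.2% of all C. This split by base rests on the scaling. With A and C centred apart in each sample, 54 flanking A were called higher and 54 lower, and 123 flanking C higher and 80 lower; with each amplicon divided by its mean the counts were 48 and 47 for A and 55 and 164 for C. The sides of the run differed little in these counts: 151 of 858 were called in the 5′ flank (17.6%), 163 of 908 in the 3′ flank (18%) and 21 of 108 between runs (19.4%). By run length the share was 19.5% beside runs of 3 G, 15.6% beside 4 G and 12.2% beside 5 or more. Among the 3 distances on each side, the highest share by base was that of C 3 nucleotides after a run, 37 of 142 called (26.1%), 28 of them lower. Nucleotides beside exactly 2 G, a class outside the rule, had 16.1% called.

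**Figure D3:**
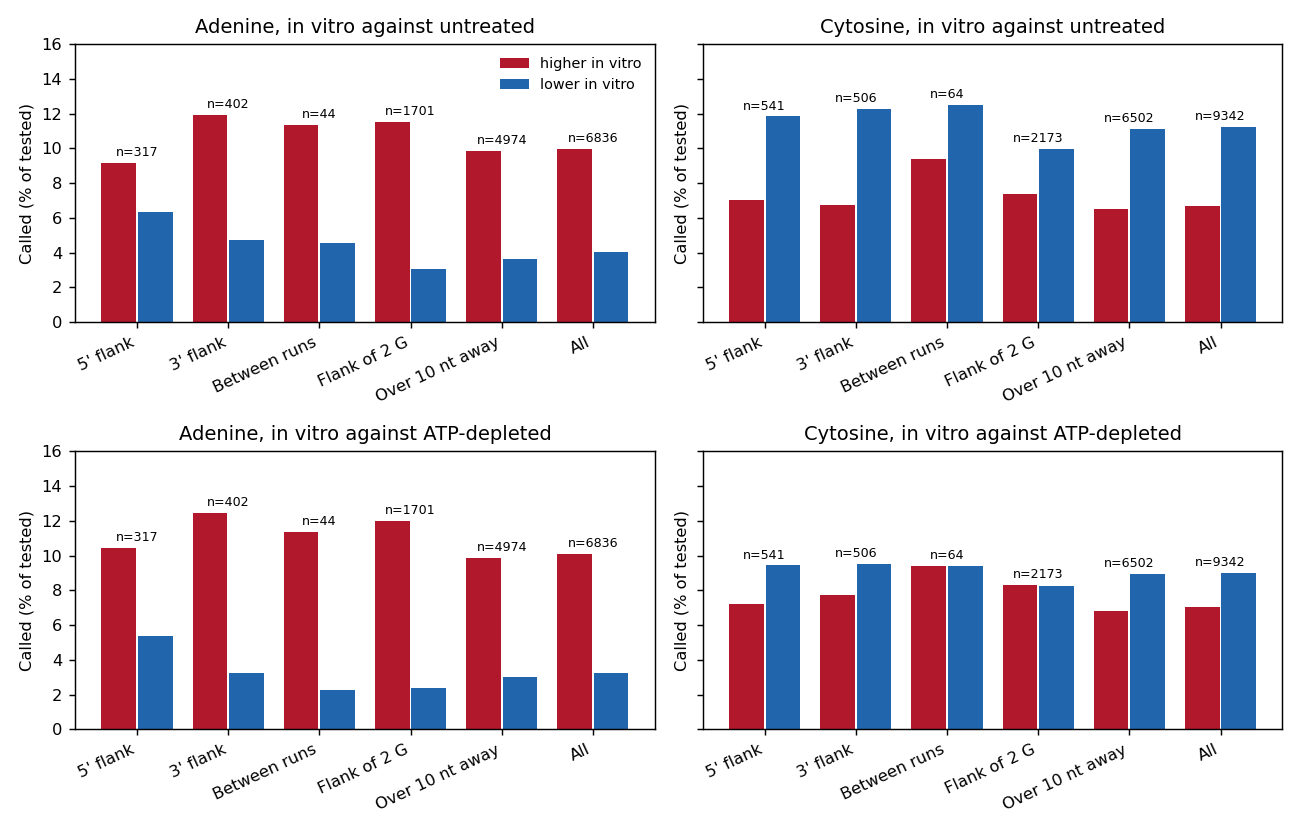
Share of tested A (left) and C (right) called by limma at an adjusted p under 0.05, higher (red) or lower (blue) in vitro, against untreated (top) and ATP-depleted cells (bottom); n is the number tested. In each class A is called higher more often than lower on this scale, which does not hold with A and C centred apart (54 flanking A higher and 54 lower against untreated cells), and the shares in the flanks stand near those of all A and C.

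In sample medians on the CPM scale, the 5′ flank A went from 9864, 8847 and 9825 CPM in untreated cells to 10065, 9867 and 10561 CPM in vitro, and the 3′ flank A from 8483, 8092 and 8611 to 9352, 8977 and 9493 CPM. The in vitro samples lay above all untreated ones in both flanks. The 5′ flank C went from 4785, 4679 and 4720.2 to 4076, 3983 and 3931 CPM and the 3′ flank C from 4467, 4569.96 and 4343 to 3563, 3585 and 3565 CPM, with all in vitro samples below all untreated ones. Distant bases moved alike, A from 8536 to 9195 CPM and C from 4926 to 4234 CPM in the group means. The values were also more spread out in the in vitro samples, which had the smallest median libraries and the largest spread between replicates. How much of this came from depth was not tested. Averaged over replicates, 5′ flank C ran from 1310.2 to 13143 CPM between the percentiles 5 and 95 in untreated cells and from 650.3 to 18228 CPM in vitro, and that of distant C from 1061 to 12880.5 and from 637 to 16077 CPM.

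Of 491 runs with tested nucleotides on both sides, 129 (26.3%) had a call on the 5′ side, 133 (27.1%) on the 3′ side and 48 (9.78%) on both. In 23 of these 48 all calls had one direction, and in 25 the directions were mixed. No like share for stretches without a run is given here. Where a flanking position was read in 2 overlapping amplicons, 38 of 307 positions were called in both, always in the same direction. Another 58 were called in 1 amplicon, with the same sign in the other for 54. All A and C were much alike: 253 of 2636 positions were called in both, 251 of them in the same direction. Of 469 called in 1 amplicon, 428 had the same sign in the other.

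In the 5′ flanks, nucleotides of Hipk3, Taok2 and Ncdn were among those with the largest changes. Hipk3 encodes a homeodomain-interacting protein kinase. Its A296, directly before a GGG, had 17576, 12042 and 17841 CPM in untreated cells, 28748, 18291 and 26244 CPM after ATP depletion and 40130.2, 52951 and 41985 CPM in vitro. The 3 groups did not overlap, and the rise in vitro over untreated cells was a log2 difference of 1.35 ± 0.20 (SE; limma, adjusted p = 0.00417). Taok2 encodes a kinase of the TAO family that acts upstream of MAP kinases. C517, 2 bases before a GGG, was read in 2 amplicons. In one it had 16383, 8075 and 5669 CPM in untreated cells, 1859, 4009 and 2634 CPM after ATP depletion and 647, 616 and 1497 CPM in vitro, and in the other 5263, 7406 and 8487 CPM in untreated cells, 3937, 3935 and 4176 CPM after ATP depletion and 727, 447 and 887 CPM in vitro. Both readings put every in vitro sample below every sample of cells. The fall from untreated cells was a log2 difference of -1.61 ± 0.28 (SE; limma, adjusted p = 0.00761) in the first and -1.39 ± 0.13 (adjusted p = 0.000734) in the second. Ncdn encodes neurochondrin, a neuronal protein. Its C188, 2 bases before a GGG, had 12001, 4212 and 5559.6 CPM in untreated cells and 1429, 605 and 2807 CPM in vitro, a log2 difference of -1.07 ± 0.27 (SE; limma, adjusted p = 0.0325), and this call held in 12 of 21 alternatives, with an adjusted p of up to 0.0865.

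In the 3′ flanks the nucleotides described are in Zc3h6 and Sertad2. Both lie within 25 nucleotides of an end of the positions read in their amplicon. The alternative without these ends therefore left them out. Zc3h6 encodes a CCCH zinc-finger protein. Its C428, directly after a GGG, had 7056, 7714 and 13103 CPM in untreated cells, 6958, 7578 and 7458 CPM after ATP depletion and 1225, 2161 and 1553 CPM in vitro. All in vitro samples were below all samples of cells, with a log2 difference of -1.34 ± 0.18 (SE; limma, adjusted p = 0.00275). Sertad2 encodes a transcriptional cofactor with a SERTA domain. Its C73, directly after a GGG, had 4700, 5366 and 5597 CPM in untreated cells and 31888, 23775 and 8419 CPM in vitro. The in vitro samples were all higher but far apart, and the call (1.40 ± 0.40; limma, adjusted p = 0.0484) held in 7 of 20 alternatives, with an adjusted p of up to 0.117.

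Between runs, the largest rise over untreated cells among the nucleotides described was in Smad6, the inhibitory Smad of BMP signalling. C174 lies in a short gap between a GGG and a GGGG and had 10196, 10304 and 7091 CPM in untreated cells, 9996, 11475 and 10278 CPM after ATP depletion and 39880.4, 41314 and 35232 CPM in vitro. All in vitro values lay far above all values in cells, with a log2 difference of 1.77 ± 0.13 (SE; limma, adjusted p = 0.000324). Cnot3, a subunit of the CCR4-NOT deadenylase, had C359 directly after a GGG and, with an A, between it and the next GGG, with 8877, 7957 and 10399.8 CPM in untreated cells and 19272, 20308 and 17328 CPM in vitro. It rose without overlap, by a log2 difference of 0.86 ± 0.11 (SE; limma, adjusted p = 0.00248). Srgap2, a GTPase-activating protein of the Slit-Robo pathway, has CC between a GGG and, after a U, another GGG. C104 had 5052, 5017 and 4774 CPM in untreated cells and 754, 2324 and 1379.6 CPM in vitro, a log2 difference of -0.81 ± 0.13 (SE; limma, adjusted p = 0.00525). Its neighbour C105 had 2692, 2697 and 2986 CPM in untreated cells and 770.2, 618 and 819 CPM in vitro, a log2 difference of -0.61 ± 0.09 (SE; limma, adjusted p = 0.00446). Both cytosines fell, with no in vitro sample reaching the untreated range.

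**Figure D4:**
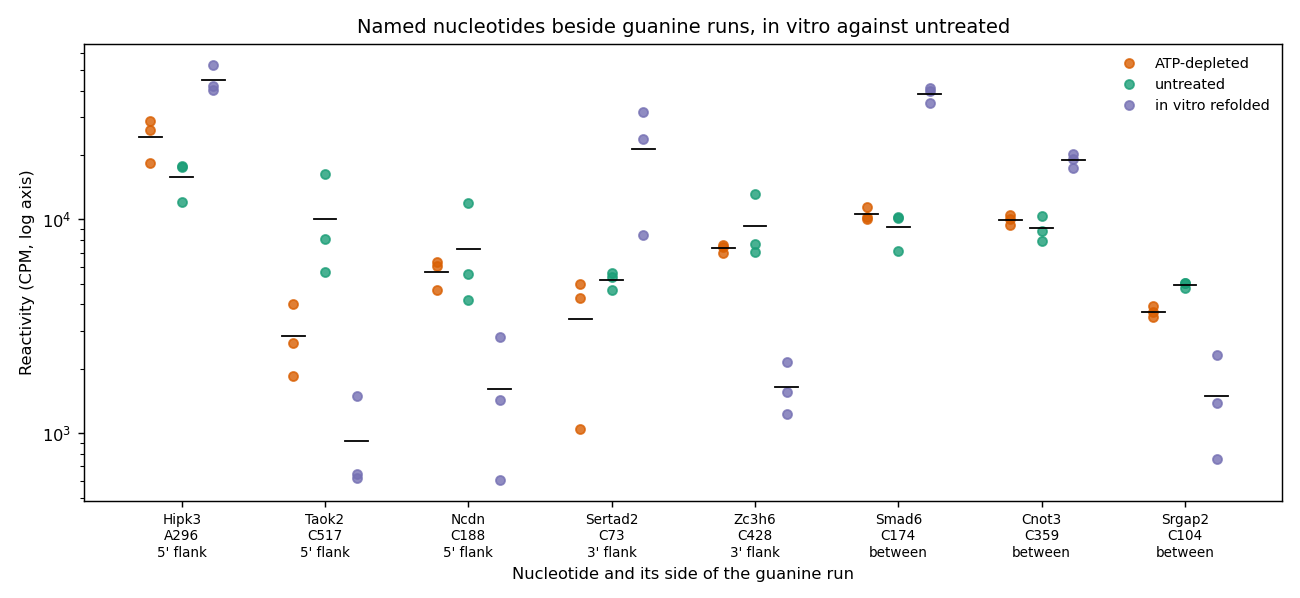
Reactivity in CPM on a log axis of 8 nucleotides named in the comparison of in vitro refolded with untreated samples; points are samples, dashes are means of 3, and labels give the gene, the nucleotide and its side of the run. In vitro points lie above all untreated points for 4 nucleotides and below them for the other 4.

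Calls were densest in Ddx17 and Eif5, which were singled out after their values were seen. In Ddx17, a DEAD-box RNA helicase, 30 of 45 flanking rows were called against untreated cells (66.7%; 16 higher, 14 lower), where 40.7% of all A and C of this 5′ UTR were called. The 45 rows cover only 29 positions, since some were read in 2 overlapping amplicons. In Eif5, the factor that triggers GTP hydrolysis at start-codon recognition, 8 of 12 were called (66.7%; 6 higher, 2 lower), again beside 40.7% of all its A and C. Windows around 5 of their runs are shown with the nucleotides called against untreated cells in capitals, in at least 1 amplicon.
Ddx17 run at 775: tcccAtAgggtAAtcac
Ddx17 run at 798: agatgCAgggCCtgcct
Ddx17 run at 873: ctactCAgggCAgttac
Eif5 run at 182: cgtcgCtgggACagtcc
Eif5 run at 292: cagtCCCgggCgagccg

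Around the Ddx17 run at 798 both flanks had low reactivity in cells and higher reactivity in vitro. C801, the base after the run, had 768, 753 and 635 CPM in untreated cells, 382, 288 and 294 CPM after ATP depletion and 6213, 6202 and 6219 CPM in vitro, a log2 difference of 1.26 ± 0.08 (SE; limma, adjusted p = 0.000194). The overlapping amplicon gave 956, 963 and 741 CPM in untreated cells, 428, 968 and 551 CPM after ATP depletion and 6066, 4799 and 5810.5 CPM in vitro. Both readings put every in vitro sample far above every sample of cells. Calls covered both sides: C796 and A797 before the run and C802 after it rose as well in both amplicons. At the run at 775 the sides moved in opposite directions. A772, 3 bases before it, had 15192, 15795 and 16981 CPM in untreated cells and 9107, 7798 and 8644 CPM in vitro, a log2 difference of -0.71 ± 0.09 (SE; limma, adjusted p = 0.00248). A780, 3 bases after it, had 1510.2, 1303 and 1407 CPM in untreated cells and 6475, 6678 and 6231 CPM in vitro, a log2 difference of 1.07 ± 0.08 (SE; limma, adjusted p = 0.000423). The run at 873 had the same arrangement, with C871 before it at 9482, 11611 and 12454 CPM in untreated cells and 5453, 3461 and 4911 CPM in vitro (-0.88 ± 0.13; limma, adjusted p = 0.00429) and C876 after it at 1555, 688 and 919 CPM in untreated cells and 3563, 4400.1 and 2407 CPM in vitro (0.64 ± 0.14; adjusted p = 0.0188).

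In Eif5 the run at 292 had calls on both sides, all higher in vitro. C295, directly after it, had 42519.7, 39560.5 and 43410.1 CPM in untreated cells and 91249.5, 87477 and 83931 CPM in vitro, a log2 difference of 1.01 ± 0.09 (SE; limma, adjusted p = 0.000633). Its untreated and in vitro values did not overlap. C290, before the run, had 6415, 6629 and 7463 CPM in untreated cells and 16357, 15803 and 15611 CPM in vitro, a log2 difference of 0.93 ± 0.09 (SE; limma, adjusted p = 0.000727). At the run at 182 the base C180 had 4232, 3568 and 3826 CPM in untreated cells, 2819, 2726 and 2807 CPM after ATP depletion and 217, 260.5 and 533 CPM in vitro, a log2 difference of -1.0 ± 0.09 (SE; limma, adjusted p = 0.000646). It fell without overlap. After the same run the calls were mixed, since A185, directly after it, rose and C186, the next base, fell (-0.48 ± 0.10; limma, adjusted p = 0.014). Chtop and Ext1 were also picked after their values were seen. Chtop, an mRNA export factor, had 36 flanking rows at 29 positions and 0 calls by limma, beside 14.4% called among all its A and C. Ext1, an enzyme of heparan sulfate synthesis, had 91 flanking rows at 69 positions. Of these rows 35 were called (38.5%), beside 36.0% over all its A and C.

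Nucleotides of the 4 quadruplex patterns were less reactive in vitro than in either group of cells, but on few counts. Their 10 A had sample medians of 7815, 7205 and 7074 CPM in untreated cells, 8376, 7206 and 7503 CPM after ATP depletion and 5638, 5483 and 3984 CPM in vitro. Their 22 C had 3624, 3208 and 3880.1 CPM in untreated cells, 3964, 3738 and 3370.3 CPM after ATP depletion and 2301, 1803 and 2629.7 CPM in vitro. The in vitro samples were below all others for both bases. The medians of 5′ flank, 3′ flank and distant A were instead higher in vitro. The A between runs, which include some pattern A, were not. Averaged over replicates, their median was 9639 CPM in untreated cells and 9202 CPM in vitro. Their ratio to distant A was 1.06 ± 0.0841 in untreated cells and 0.955 ± 0.0937 in vitro (SD, n = 3 each). Those of 5′ flank, 3′ flank and distant C were lower in vitro than in untreated cells, so the pattern C went the same way as C in general. As a ratio to distant C, the pattern C stood at 0.725 ± 0.0701 in untreated cells and 0.529 ± 0.0934 in vitro (SD, n = 3 each). limma called 5 of the 32 nucleotides against untreated cells (15.6%), beside 16.3% of all A and C. All 5 were lower in vitro, beside 8.18% of all A and C called lower. By base, 3 of 22 C were called lower beside 11.2% of all C, and 2 of 10 A beside 4.05% of all A. Against ATP-depleted cells 3 of 32 were called, beside 14.9% of all A and C. These were also all lower, beside 6.56% called lower. Under the 3 other scalings and on the deposited log2 scale 3 to 6 were called lower and 0 higher against untreated cells. The median log2 difference from untreated cells was -0.20 over the 32, against 0.00 over all A and C.

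Of the 4 patterns 3 rest on thin libraries, since the smallest library of the amplicon held 2957 counts in Stox2, 458 in Rarg and 235 in Senp3. Rarg encodes retinoic acid receptor gamma. Its C422, the first base of the second loop, had 9317, 8509 and 14894 CPM in untreated cells, 16872, 16773 and 12294 CPM after ATP depletion and 2476, 811 and 4932 CPM in vitro, from 2, 0 and 8 counts in vitro, where the sample with 0 counts takes its value from the 0.5 added to every count. It fell by limma (log2 difference -1.28 ± 0.27, adjusted p = 0.017), as did A411 before the first run (-1.23 ± 0.25, adjusted p = 0.0153). In Senp3, a SUMO protease, A74 in the last loop had 10592, 7652 and 11035 CPM in untreated cells and 4839.5, 5483 and 3921 CPM in vitro, from 2, 1 and 4 counts in vitro. Those samples did not overlap, and A74 was called lower (adjusted p = 0.0149). C1164 of Stox2, which lies 3 bases before the first run and just outside the printed stretch, was called lower with 12, 3 and 4 counts in vitro (adjusted p = 0.0357).

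Ints6, a subunit of the Integrator complex, holds the pattern with the deepest libraries, at least 26497 counts each. Its first loop contains C270, which had 1361, 1264 and 1049 CPM in untreated cells, 1095, 1309 and 1109.95 CPM after ATP depletion and 593, 95.6 and 280.4 CPM in vitro. C270 fell from untreated cells (-0.33 ± 0.09; limma, adjusted p = 0.0441), a small difference on the log2(CPM + 3196.78) scale because its level is low. Despite the deep libraries, the in vitro values of C270 came from only 12, 2 and 19 counts. A266 in the same loop had 12172, 10122 and 12935 CPM in untreated cells and 17490.2, 13333 and 25570.3 CPM in vitro, higher in all but not past the threshold (adjusted p = 0.103). Of the 10 flanking nucleotides of the Ints6 pattern 1 was called against untreated cells and 0 against ATP-depleted cells by limma.

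**Figure D5:**
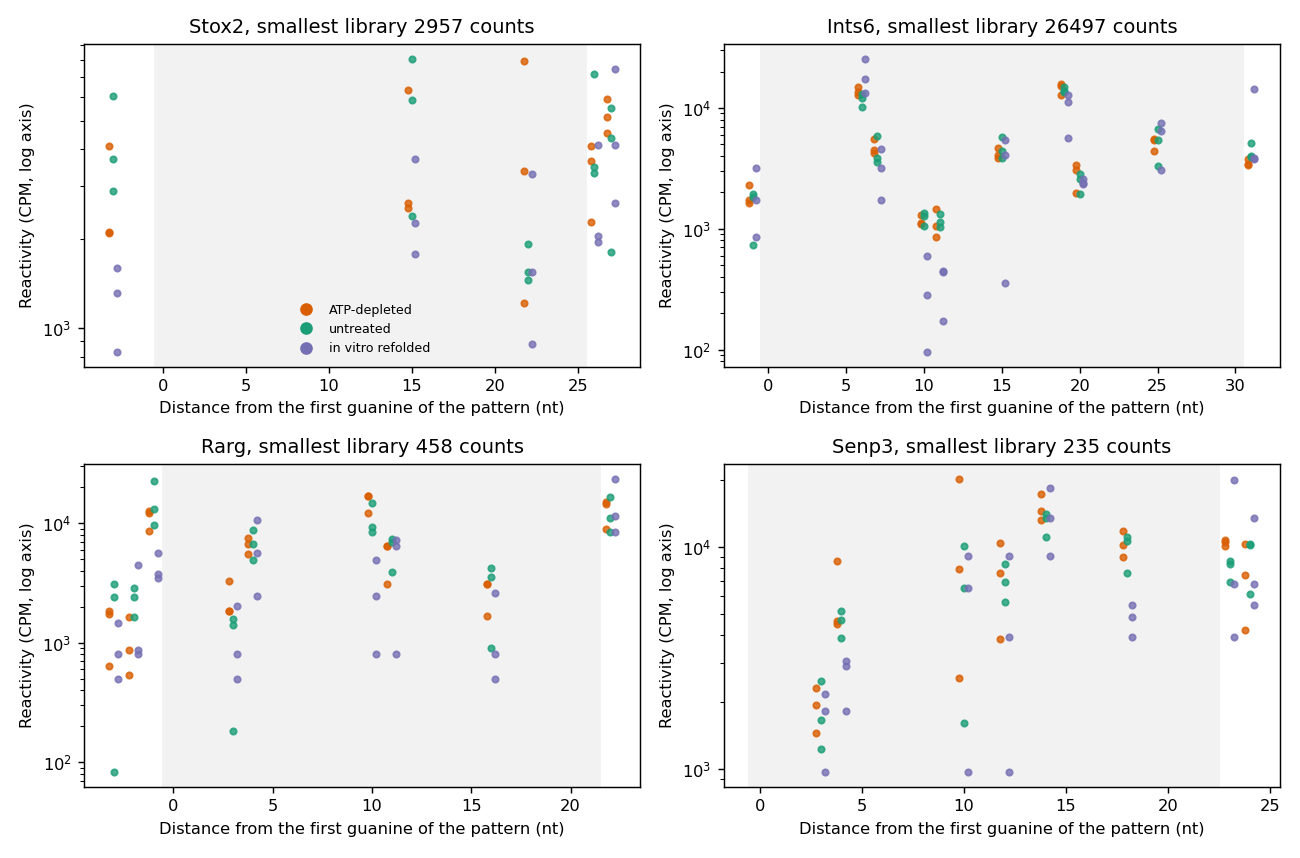
Reactivity in CPM on a log axis of the flanking A and C of the 4 quadruplex patterns against distance from the first guanine of the pattern; points are samples and the grey band is the pattern. In vitro points are below those of both groups of cells at Ints6 C270, 10 nt from the first guanine, and at the Senp3 A74, 18 nt from it.

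No flanking nucleotide was called against untreated cells at the run of 12 G, the run of 8 G or the run of 7 G described here. The last is 1 of 6 of that length as counted per amplicon. Their 5′ and 3′ flanks held only 2 and 2, 1 and 1, and 2 and 3 nucleotides. With 16.3% of all A and C called, the lack of calls among so few says little about long runs. The run of 12 G in Smad6 is shown with its flanks because it is the longest of all.
Smad6 run at 204: ggtgaaGGGGGGGGGGGGcgacct
C216, directly after it, had 2265, 2168 and 2529 CPM in untreated cells, 2697, 2659 and 2639.99 CPM after ATP depletion and 2695, 2116 and 1663 CPM in vitro, a log2 difference of -0.05 ± 0.10 (SE; limma, adjusted p = 0.789), and A218 had 9784, 8382 and 10144 CPM in untreated cells, 10502, 9755 and 11936 CPM after ATP depletion and 16821, 11003 and 13789 CPM in vitro (adjusted p = 0.0794 against untreated cells). The in vitro values of C216 overlapped those of cells. Beside the run of 8 G in Eed, a subunit of the PRC2 complex, C337 had 6334, 4995 and 5796 CPM in untreated cells and 4644, 2889 and 2494 CPM in vitro, without overlap but with an adjusted p of 0.0558 by limma. None of the 5 flanking nucleotides of the run of 7 G in Nfe2l1, a transcription factor of the proteasome stress response, was called, in an amplicon whose smallest library held 1026 counts.

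Set against ATP-depleted cells, refolded RNA gave a like number of calls. limma called 308 of 1874 flanking nucleotides (16.4%), 172 higher and 136 lower in vitro, beside 14.9% of all A and C, 8.31% higher and 6.56% lower. By side the counts were 140 of 858 in the 5′ flank, 150 of 908 in the 3′ flank and 18 of 108 between runs. Of 763 flanking A, 88 were higher and 31 lower (11.5% and 4.06%, beside 10.1% and 3.26% of all A). Of 1111 flanking C, 84 were higher and 105 lower (7.56% and 9.45%, beside 7.02% and 8.97% of all C). With A and C centred apart the counts were 51 and 46 for A and 116 and 70 for C, and with each amplicon divided by its mean 117 flanking nucleotides were higher and 160 lower. This comparison uses the same in vitro samples as the one against untreated cells, so the 2 sets of calls are not independent. The count was 193 in a fit of the 6 compared samples and 157, 119 and 154 without ATP-depleted replicate 1, 2 or 3.

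Several of the nucleotides named above were again among the largest changes: Smad6 C174 (1.61 ± 0.13; limma, adjusted p = 0.000563) and Sertad2 C73 (1.80; adjusted p = 0.0214) upwards, and Zc3h6 C428 (-1.12; adjusted p = 0.0057) and Srgap2 C105 (-0.63; 0.00409) downwards. The call of Sertad2 C73 held in 14 of 20 alternatives. Other nucleotides entered here. Brd2, a BET-family reader of acetylated histones, had C1435, 2 bases before a GGG, at 8709.7, 8699 and 8779 CPM after ATP depletion and 1208, 1489 and 4004 CPM in vitro, a log2 difference of -1.17 ± 0.20 (SE; limma, adjusted p = 0.0082). Smad6 C1060, directly after a GGGG, had 17457, 19496 and 16275 CPM after ATP depletion and 5758, 10198 and 5559 CPM in vitro, a log2 difference of -1.04 ± 0.19 (SE; limma, adjusted p = 0.0111). Both fell without overlap. Taok2 C518, directly before its GGG, had 5961, 4845 and 4089.6 CPM after ATP depletion and 474, 691 and 791 CPM in vitro in one amplicon, a log2 difference of -1.08 ± 0.13 (SE; limma, adjusted p = 0.00185). The other amplicon gave 2319, 2223 and 3121 CPM after ATP depletion and 3535, 995 and 1269 CPM in vitro, overlapping values with a log2 difference of -0.19 ± 0.23 (SE; limma, adjusted p = 0.616), so the fall of C518 was seen in 1 of 2 readings.

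Upwards, Tmtc2, a transmembrane protein of the endoplasmic reticulum, had C697, 2 bases before a GGG, at 347, 4321 and 3615 CPM after ATP depletion, 6064, 6064 and 6078 CPM in untreated cells and 21385, 15179 and 8955 CPM in vitro. The difference from ATP-depleted cells was 1.64 ± 0.32 (SE; limma, adjusted p = 0.0137), and it missed the threshold on the deposited log2 scale (adjusted p = 0.0619). That from untreated cells was 0.93 with an adjusted p of 0.0885. Hipk3 A302, between 2 runs, had 6071, 6264 and 7816 CPM after ATP depletion and 12050.5, 16029 and 14624 CPM in vitro, without overlap, a log2 difference of 0.81 ± 0.18 (SE; limma, adjusted p = 0.0199). The call on A302 held in 17 of 21 alternatives, with an adjusted p of up to 0.0809.

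ATP depletion changed none of the flanking nucleotides past the threshold. limma called 0 of 1874 at an adjusted p under 0.05, and 0 also with its trend and robust options. At an unadjusted p under 0.05 there were 86 flanking nucleotides, 4.59% of those tested, beside 3.93% of all A and C. All replicates lay above the untreated ones for 68 flanking nucleotides and below them for 162, or 3.63% and 8.64%, beside 4.45% and 7.92% of all A and C. Among flanking A, 21 lay above and 53 below (all A 4.52% and 6.28%), and among flanking C 47 above and 109 below (all C 4.4% and 9.13%). Sample medians of 5′ flank C were 4639.7, 4278 and 4271 CPM after ATP depletion and those of 3′ flank C 4019, 4122 and 4193 CPM, each below every untreated sample. The medians of distant C, 4669, 4648 and 4831 CPM, were below every untreated one too.

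The 2 flanking nucleotides with the smallest unadjusted p in each direction, in amplicons whose libraries all held 5000 counts or more, were in Rnf10 and Smad6 (higher) and in Tjap1 and Kmt2e (lower), and none passed the adjustment (limma, adjusted p = 1 for each). Rnf10, a RING-finger ubiquitin ligase, had C295 directly after a GGG at 6212, 7027 and 6605 CPM after ATP depletion and 4401, 4611 and 4279 CPM in untreated cells, a log2 difference of 0.36 ± 0.09 (SE, as in the other differences here). Its second amplicon gave 3666, 3788 and 4379.9 CPM after ATP depletion and 2781, 3309.6 and 3249 CPM in untreated cells, 0.18 ± 0.10, the same direction without overlap. Smad6 A973 had 22595, 18066 and 22615 CPM after ATP depletion and 16575, 13468 and 13076 CPM in untreated cells, 0.47 ± 0.12. For these the depleted samples were the higher ones. Tjap1, a tight-junction associated protein, had C320 after a GGGG at 2731, 2665 and 2407 CPM after ATP depletion and 4265, 5715 and 5354 CPM in untreated cells, -0.52 ± 0.10. Kmt2e, of the trithorax family, had C184, 3 bases before a GGG, at 2529, 2736 and 2718 CPM after ATP depletion and 5322, 4422 and 6563 CPM in untreated cells, -0.55 ± 0.11. In both the depleted samples were lower without overlap, and C184 was lower still in vitro, at 911, 731 and 1256 CPM (-1.05 ± 0.11 from untreated cells; limma, adjusted p = 0.00133). Taok2 C517, whose values are given above, had lower values after ATP depletion without overlap in both amplicons, with log2 differences of -1.07 ± 0.28 (limma, unadjusted p = 0.00451, adjusted p = 1) and -0.49 ± 0.13 (unadjusted p = 0.00462).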

How the data were processed

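The 9 libraries of mouse E14TG2a cells were grouped by their titles, 3 per group. Per the labels' protocols, 100 highly conserved 5′ UTRs were chosen and 380 primer pairs made. The submitters' processing notes name bcl2fastq, Bowtie2 and limma; the genome build and the mutation counter were named by no source used here. The authors' deposited values are log2; in all 1449 amplicon-by-sample libraries they equalled log2 of a whole number plus 0.5 over a scaled library size, times 1000000 (tolerance 0.0001). The whole numbers are taken as mutation counts; coverage is unknown. Gene names came from RefSeq (GRCm38.p6) for 68 of 69 transcripts.

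Here 2 to the power of the deposited log2 value was used as CPM. limma 3.58.1 (R 4.3.3) was fitted to log2(CPM + 3196.78), 0.5 times the pooled A and C median, over all 9 samples and all 16178 A and C with a count, with Benjamini-Hochberg adjustment over them and a threshold of 0.05. Differences on this scale understate those of weak nucleotides. The p-values measure the spread between these samples, and counts from amplified cDNA are not independent molecules. The script was tested on simulated data for in vitro against untreated samples, with 50 of 16178 rows changed at each size. It recovered 16% of log2 changes of 0.5, 56% of 1.0, 86% of 1.5 and 98% of 2.0. Of 139 calls 11 were false. Small differences can thus be missed. Named nucleotides were those called without replicate overlap in amplicons whose 9 libraries each held at least 5000 counts, the 2 largest rises and falls per side; in the comparison with under 6 calls, the 2 smallest p per direction. Of the longest runs 3, including 1 of 6 tied at 7 G as counted per amplicon, and all quadruplex patterns were also described. The members and these rules were chosen with earlier results of these data known. The labels state no pairing of samples by replicate number. Same-numbered samples of different groups correlated at -0.018 to 0.09996 in their deviations from the group means, and differently numbered ones at -0.054 to 0.015. Between ATP-depleted and untreated cells the same-numbered pairs (0.041, 0.09996 and 0.031) lay above the differently numbered ones (-0.054 to 0.00082). A weak pairing of these groups can thus not be set aside. Some named nucleotides are not reported here. Alternatives covered pseudocount, scale, scaling, filters, depth, samples, flank width, run length and left-out replicates.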

Additional observations from a re-analysis of the deposited data

How the results depend on the processing

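Leaving out each replicate of any group in turn gave 179 to 302 flanking calls against untreated cells and 119 to 286 against ATP-depleted cells (335 and 308 with all samples). The fit of the 6 compared samples gave 163 and 193. Counting nucleotides within 1 nt of a run gave 151 and 143, runs of 4 or more G 97 and 83, and nucleotides within 5 nt 510 against untreated cells; these settings change how many nucleotides are counted. A replicate block, a pairing that the labels do not state, gave 292, 266 and 0 calls. ATP-depleted against untreated gave 0 under every alternative run. The untreated ratios to distant bases ranged over left-out replicates from 1.09 to 1.13 (5′ flank A), 0.949 to 0.968 (5′ flank C), 0.977 to 0.996 (3′ flank A) and 0.897 to 0.920 (3′ flank C). With runs of 4 or more G the ratios were 0.863 for 5′ flank C, 1.02 for 3′ flank A and 1.02 for 3′ flank C, which thereby crossed 1; the cause was not tested. Means in place of medians gave 0.992, 1.04 and 0.932 in the same order. Within 1 nt of the run 3′ flank A stood at 1.01 and 3′ flank C at 0.810, and 3′ flank C at 0.838 within 2 nt and 0.986 within 5 nt. Depth limits the rest: 1282 of the 1875 rows lie in amplicons whose libraries all held at least 5000 counts.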
